A study of Mus musculus with 2 samples.

Results

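Cytotoxic lymphocytes kill by emptying granules that hold perforin and granzymes onto a target cell. Here the transcripts of 8 granzymes (Gzma, Gzmb, Gzmc, Gzmd, Gzme, Gzmf, Gzmg and Gzmk) and of perforin (Prf1) were followed across the cells of mouse melanomas. These 9 genes were taken by symbol from the 14654 genes of the deposited count table, and all 9 were found in it. The tumors came from YUMMER1.7, a BRAF-mutant mouse melanoma line, grown for 11 days under the skin of male C57BL/6 hosts aged 8 weeks. Hosts were wild type (WT) or Siah2-/-, which lack the ubiquitin ligase Siah2, while the melanoma cells were the same in both. Live CD45-positive cells were sorted, some CD45-negative cells were mixed back in, and 1 droplet library was made per genotype by a method that counts molecules (UMIs) at the 3′ end of transcripts.

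Since each genotype had 1 library, samples could not be tested against each other, and genotype, tumor pool, library and sequencing lane cannot be told apart. All intervals below are exact 95% intervals that cover counting error only. There were 4512 analysed WT cells and 5563 from the library labelled Siah2-/-. They held 64793053 and 59090284 UMIs, with medians of 11439.5 and 8700.0 UMIs per cell. The lowest cell held 6670.0 UMIs in WT and 4896 in the other library, and 34 cell barcodes occurred in both. Siah2 itself was counted at 10.2 CPM (UMIs scaled to a common total) in WT and at 8.55 in the other library. The deleted part of the gene is not known here and only 3′ ends are read, so these counts do not check the labels. Where values stand in pairs below, WT comes first and the library labelled Siah2-/- second.

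Perforin forms pores in the membrane of the target, and granzymes are serine proteases that enter through them. Granzyme B cleaves after aspartate and activates caspases, whereas granzymes A and K cleave after basic residues. Gzmc, Gzmd, Gzme, Gzmf and Gzmg lie beside Gzmb in a cluster that has expanded in rodents. In GRCm38, Gzmb (ENSMUSG00000015437) takes up bases 56258838 to 56262260 of chromosome 14, minus strand. With the other cluster genes, of which Gzmn is not among the 9, it makes 7 genes within 144635 bases. Gzma (ENSMUSG00000023132) and Gzmk (ENSMUSG00000042385) are neighbors on chromosome 13, with 70626 bases between them, and Prf1 (ENSMUSG00000037202) is on chromosome 10 from 61297833 to 61304680. Each of the 8 granzyme members has 5 exons in its first annotated transcript, and Prf1 has 2.

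The 250 bases before the start of 6 members, taken from each chromosome that holds members, are shown as a description. No link between these sequences and the differences between the libraries was tested. They are RefSeq sequences of build GRCm38.p6, written 5′ to 3′ toward the start, and capitals mark matches, on either strand, to the letters of 5 motifs spelled out after them.
Gzma, chr13:113100982-113101231 (- strand): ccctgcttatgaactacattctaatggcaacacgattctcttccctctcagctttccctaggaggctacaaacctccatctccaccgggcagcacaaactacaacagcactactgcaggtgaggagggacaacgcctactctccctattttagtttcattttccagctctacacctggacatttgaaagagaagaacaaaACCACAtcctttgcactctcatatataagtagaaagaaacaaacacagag
Gzmk, chr13:113180966-113181215 (- strand): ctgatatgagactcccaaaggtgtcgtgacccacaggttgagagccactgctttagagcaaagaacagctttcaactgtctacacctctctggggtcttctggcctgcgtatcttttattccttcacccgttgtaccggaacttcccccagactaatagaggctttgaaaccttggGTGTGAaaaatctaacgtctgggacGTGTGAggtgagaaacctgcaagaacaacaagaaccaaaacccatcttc
Gzmb, chr14:56262335-56262584 (- strand): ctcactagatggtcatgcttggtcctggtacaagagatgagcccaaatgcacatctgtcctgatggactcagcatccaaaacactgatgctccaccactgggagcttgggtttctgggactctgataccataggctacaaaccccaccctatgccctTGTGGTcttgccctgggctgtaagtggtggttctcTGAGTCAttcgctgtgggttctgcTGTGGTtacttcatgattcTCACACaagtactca
Gzmc, chr14:56234658-56234907 (- strand): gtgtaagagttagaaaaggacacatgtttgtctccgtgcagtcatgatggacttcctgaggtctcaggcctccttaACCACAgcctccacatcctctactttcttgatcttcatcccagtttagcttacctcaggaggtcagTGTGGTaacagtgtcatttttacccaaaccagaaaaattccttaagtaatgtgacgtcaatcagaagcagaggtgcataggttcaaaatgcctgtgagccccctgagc
Gzmf, chr14:56211408-56211657 (- strand): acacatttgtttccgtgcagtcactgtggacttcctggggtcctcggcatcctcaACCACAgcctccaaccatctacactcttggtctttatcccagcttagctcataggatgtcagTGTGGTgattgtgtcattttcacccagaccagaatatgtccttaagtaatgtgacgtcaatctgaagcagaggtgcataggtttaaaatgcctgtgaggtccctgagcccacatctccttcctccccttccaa
Prf1, chr10:61297586-61297835 (+ strand): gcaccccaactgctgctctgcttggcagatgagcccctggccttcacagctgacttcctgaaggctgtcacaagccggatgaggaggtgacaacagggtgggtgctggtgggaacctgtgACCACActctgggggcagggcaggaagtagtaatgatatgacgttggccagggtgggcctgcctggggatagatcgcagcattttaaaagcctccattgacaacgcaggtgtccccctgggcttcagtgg

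The Runx letters, TGTGGT on either strand, stood in this window in 8 of 9 members and in 14.2% of 27025 promoters of the same length. Gzmk was the member without them. Its window held the T-box letters, TCACAC or their reverse complement, at 2 places, from 74 and 49 bases before the start, and Gzmb was the other member with T-box letters, which were in 12.2% of all promoters. The AP-1 letters, TGANTCA with any base at N, were present in Gzmb alone of the 9, from 58 bases before its start, and in 6.87% of all promoters. No member held the STAT letters, TTCNNNGAA, which were in 7.18% of promoters. The TATA letters, TATAAA, were likewise in no member and in 13.0% of promoters. The windows of the cluster genes are not independent of each other. Gzmd and Gzme were identical at 95.2% of positions, and Gzmc and Gzmf at 77.2%. The windows lie before the RefSeq start of each gene, which for Gzmk is inside the longer gene model of the annotation, from 113171608 to 113225908 on chromosome 13. A letter match is a description of the sequence and not a binding site.

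Likeness extends to the transcripts, which bears on how surely a read is given to 1 gene. Gzmd and Gzme were identical at 90.04% of positions over the whole transcript, Gzmf and Gzmg at 87.6%, and Gzmc was at most 72.5% identical to another member. Within the last 400 bases, where this method reads, 12.3% of the 60-base pieces of Gzmg occurred unchanged in another granzyme transcript. The shares were 6.74% for Gzmd, 6.45% for Gzmf and 4.11% for Gzme, and 0 for Gzma, Gzmb, Gzmc, Gzmk and Prf1. Counts of Gzmd, Gzme, Gzmf and Gzmg are therefore uncertain in how they are split among these 4 genes.

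Cells were placed by UMIs of marker genes, none of which is a member. A T cell needed 2 of 3 CD3 genes, an NK cell 2 of 5 receptor genes such as Ncr1, a macrophage 2 of 5 genes such as Csf1r, a dendritic cell (DC) 2 of 6 genes such as Flt3, and a CD45-negative cell no Ptprc and 3 of 8 matrix and stromal genes. Cells that met more than 1 definition stayed out, 857 in WT and 1473 in cells labelled Siah2-/-. This left 471 and 1149 T cells, of which 355 and 675 were CD8 T cells and 44 and 49 were Foxp3-positive Tregs. NK cells numbered 401 and 595, macrophages 1959 and 2113, DC 65 and 88, and CD45-negative cells 618 and 72. The cells kept by the authors began at 6670 and 4896 UMIs, so cells with fewer UMIs were left out. With all barcodes of 1000 or more UMIs there were 2232 and 2568 T cells, 997 and 1051 CD8 T cells, and 380 and 183 Tregs. The numbers analysed therefore do not compare how common these cells were. Genes that were not used to tell T from NK cells separated them in part. Cd8a stood at 746 and 627 CPM in T cells against 3.43 and 7.45 in NK cells, and the receptor chain Klrd1 at 718 and 912 against 1377 and 1526. Lck, at 559.6 and 650 against 384 and 393, and Thy1, at 832 and 1151 against 687 and 610, were present in both, and in macrophages they stood between 5.11 and 22.0 CPM.

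Where the transcripts lay differed by member. NK cells held most UMIs of Gzmc in WT (77.5% of those in all cells) and of Gzma in both libraries (57.5% and 52.1%). Gzmk was the T cell member, with 64.4% and 58.5% of its UMIs in T cells and 3.79% and 4.17% in NK cells. Gzmb was shared, with 37.3% and 41.2% in T cells and 29.9% and 17.4% in NK cells. For Prf1 the NK cells held the largest share, 62.1% and 44.6%. Much of the rest was in cells with both T and NK markers, which held 13.1% and 23.6% of Gzmb. UMIs at the 3′ end count molecules and do not grow with transcript length. On that basis levels of different members are set side by side, other than those of Gzmd, Gzme, Gzmf and Gzmg, whose split is uncertain. Whether all members are captured equally well was not checked.

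**Figure D1:**
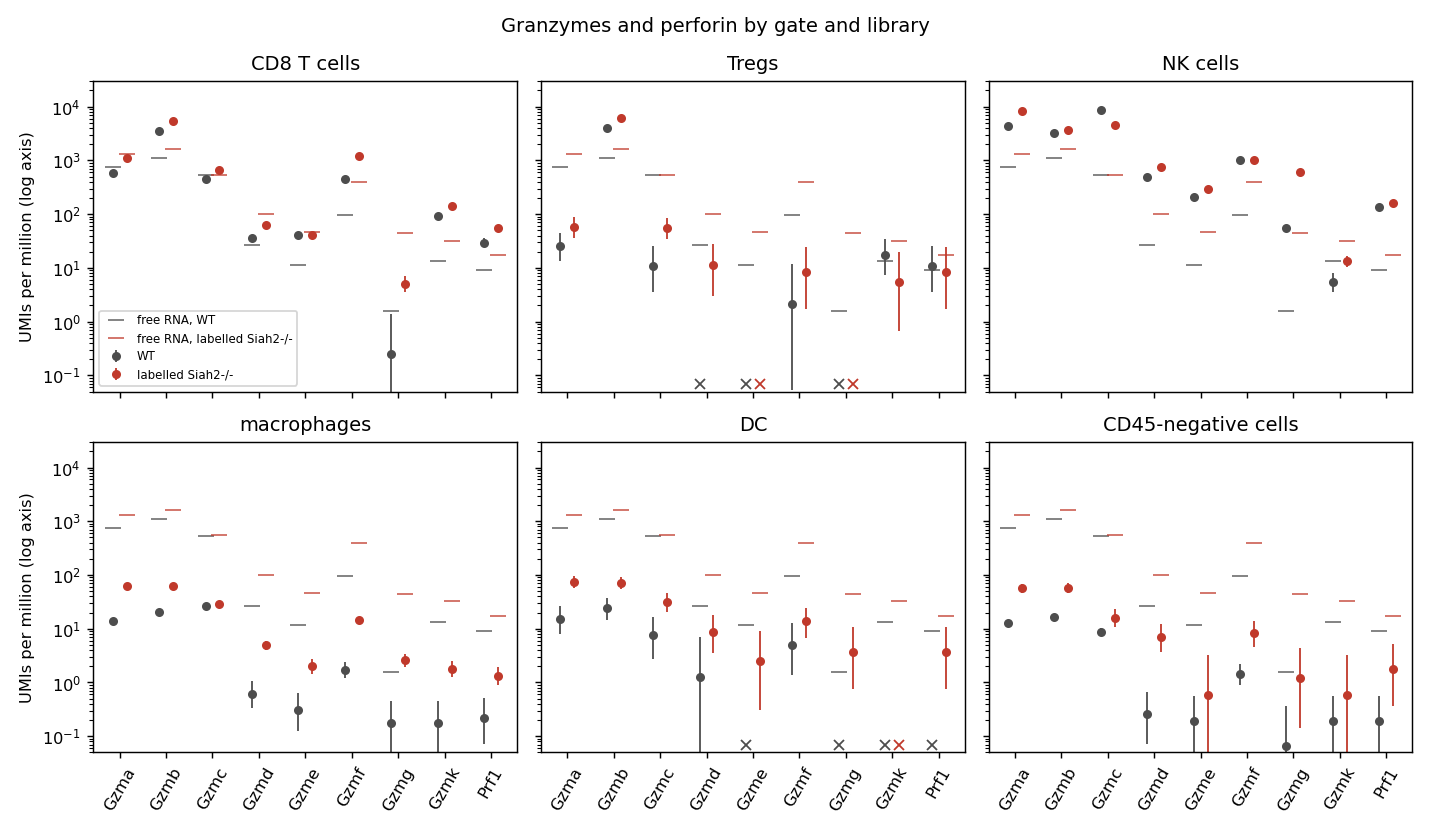
Levels of the 9 members in 6 gates, in CPM on a log axis, for WT (grey) and the library labelled Siah2-/- (red). Points carry exact Poisson 95% intervals, crosses at the foot mark a count of 0, and short bars give the level in free RNA; NK cells stood above free RNA for 8 of 9 members, and macrophages, DC and CD45-negative cells for 0.

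Free RNA was read from barcodes of 100 or fewer UMIs, which hold RNA from broken cells and no cell of their own. Gzmb stood at 1121 and 1646 CPM of free RNA, Gzma at 760.2 and 1304, and Gzmc at 527 and 546. Gzmf was at 94.96 and 393, and Gzmg at 1.56 and 44.2. Free RNA thus held more of 8 members in the library labelled Siah2-/-, with log2 ratios from 0.56 for Gzmb to 4.82 for Gzmg. Gzmc was the exception at 0.05 (−0.02 to 0.12). The 8 other lymphocyte genes set beside the members in macrophages below were also higher in free RNA of that library. Among them Lck was at 196 and 285 CPM, Thy1 at 287 and 399, and Cd5 at 35.8 and 40.4. How many of all genes were higher in free RNA was not counted.

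Over all T cells 5 and 4 members were at least 1.5-fold above free RNA, against 15.3% and 10.1% of all genes. In NK cells 8 of 9 members were at least 1.5-fold above free RNA in either library, against 7.52% and 7.71% of all genes. Gzmk was below it, at 41.3% and 41.5% of the free RNA level. In CD8 T cells 5 and 4 members were above, against 15.2% and 10.2% of all genes. Gzmk, Gzmf, Gzmb and Prf1 were above in both libraries, Gzmk by 7.05-fold and 4.40-fold and Prf1 by 3.30-fold and 3.10-fold. Gzma in CD8 T cells stood at 0.758 and 0.857 of its free RNA level. Macrophage genes in the same CD8 T cells (Lyz2, C1qa, C1qb, C1qc and Apoe) stood at 2.49% to 4.17% of their free RNA level in WT and 3.95% to 5.71% in the other library. The part of free RNA in the CD8 T cell levels was not tested.

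CD8 T cells had higher counts of most members in the library labelled Siah2-/-. A member was called higher or lower with a 1.5-fold difference in CPM, an interval of the log2 ratio on 1 side of 0, and 20 or more UMIs. By this rule 7 of 9 members were higher and 0 lower in CD8 T cells, where 7.98% of 10065 genes were higher and 10.6% lower. The median log2 ratio was 0.84 over the members and −0.08 over all genes. Gzmb, the main granzyme of these cells, had 3473 CPM in WT (3416 to 3531) and 5505 in cells labelled Siah2-/- (5447 to 5564), a log2 ratio of 0.66 (0.64 to 0.69). Gzma had 576 and 1118 CPM, a log2 ratio of 0.96 (0.89 to 1.03). Intervals of the 2 libraries did not overlap for either gene.

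Gzmf also differed in CD8 T cells. Its level was 446 CPM in WT and 1219 in cells labelled Siah2-/-, a log2 ratio of 1.45 (1.38 to 1.53), with the uncertain split between Gzmd, Gzme, Gzmf and Gzmg. Perforin, without which granzymes do not enter the target, was scarce by comparison at 29.6 (24.6 to 35.5) and 54.3 (48.7 to 60.4) CPM, a log2 ratio of 0.87 (0.57 to 1.19). Gzmk stood at 93.6 and 141.8 CPM, a log2 ratio of 0.60 (0.42 to 0.78). Gzmd had a log2 ratio of 0.84 (0.56 to 1.12). Gzmc, at 445 and 667 CPM, fell short of the 1.5-fold limit with a log2 ratio of 0.58 (0.50 to 0.66), and Gzme was at 0.04 (−0.25 to 0.33). The value of Gzme depended on which cells were kept, with 4.54 when cells with any marker of another gate were left out and 1.00 when cells with both T and NK markers were counted as T cells. For Gzmg the counts were 1 UMI and 32 UMIs, a log2 ratio of 4.36 (1.78 to 9.71). Averaging over cells with equal weight left 4 members higher, Gzma, Gzmf, Gzmg and Prf1, with Gzmb at 0.45 on the log2 scale. The share of all genes called higher under that setting was not counted. Gzmb also fell under the limit with no marker of another gate (0.53) and without the 5% of cells with most UMIs (0.54).

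**Figure D2:**
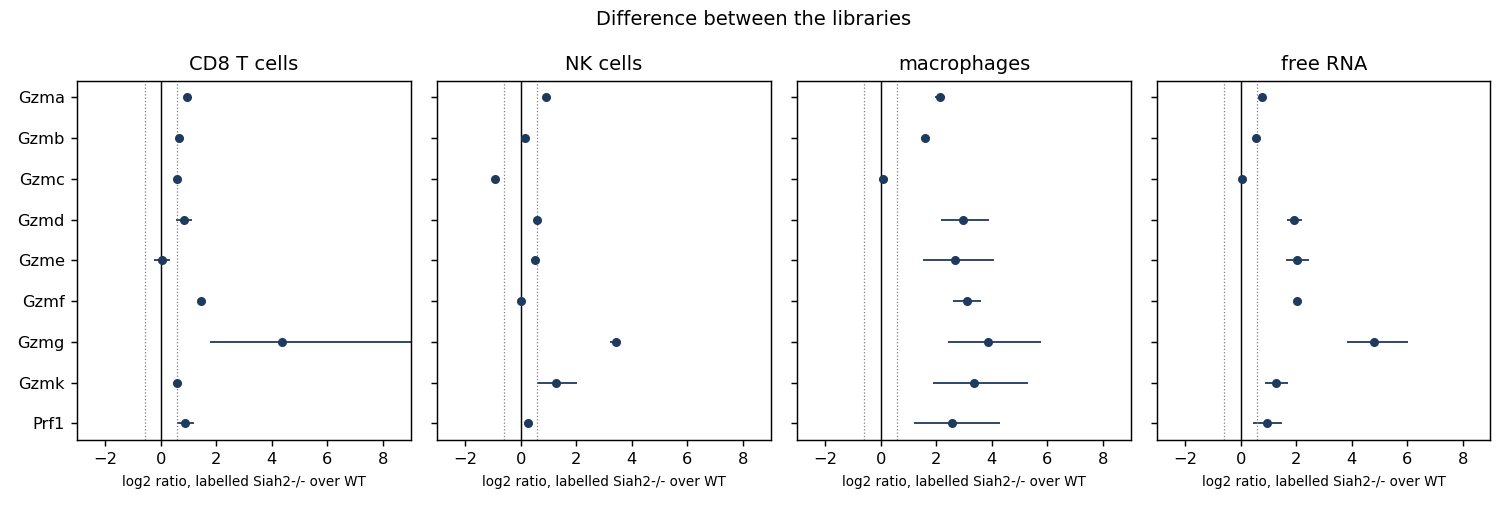
Log2 ratio of CPM, library labelled Siah2-/- over WT, for the 9 members in CD8 T cells, NK cells, macrophages and free RNA. Bars are exact conditional binomial 95% intervals (the bar of Gzmg in CD8 T cells runs past the axis to 9.71), and dotted lines mark a 1.5-fold difference; Gzmc lay at −0.93 in NK cells and at 0.58 in CD8 T cells.

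These transcripts were not spread evenly over CD8 T cells. Of the 675 cells of the library labelled Siah2-/-, 73 held 50% of the Gzmb UMIs, 19 held 50% of Gzma and 17 held 50% of Gzmf. In WT the numbers were 56, 7 and 5 of 355 cells, and 1 cell held 21.2% of the Gzmf UMIs. The median CD8 T cell had 26.0 and 30.4 Gzmb UMIs per 10000 UMIs, and the cell at the 90th percentile had 74.8 and 114. For Gzmf the 90th percentile was 2.62 and 24.4, with a median of 0 in both.

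Shares of cells with a UMI were compared after each cell was thinned to 4800 UMIs, a depth that every cell reached. Gzma was present in 21.7% (17.5 to 26.3) of WT CD8 T cells and in 41.8% (38.0 to 45.6) of those labelled Siah2-/-, or in 29.0% and 53.2% before thinning. Macrophages, which should lack the gene, had a Gzma UMI in 6.64% and 24.2% after thinning, at median depths of 10034 and 8719 UMIs before it, against 9357 and 7728 in CD8 T cells. Gzmf was present in 15.2% and 23.7% of CD8 T cells, against 0.664% and 7.15% of macrophages. Prf1 was present in 9.58% and 16.9%, against 0.153% and 0.521% of macrophages. For these 3 members the intervals of the libraries did not overlap in CD8 T cells. How many of all genes would differ in this way was not counted. Gzmb differed by less than the intervals, with 83.9% (79.7 to 87.6) and 87.0% (84.2 to 89.4).

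Single CD8 T cells also carried more kinds of granzyme in the library labelled Siah2-/-. At 4800 UMIs, 3 or more of the 8 granzymes were present in 26.8% (22.2 to 31.7) of WT cells and in 42.5% (38.8 to 46.3) of the others. Prf1 and Gzmb were both present in 9.58% (6.72 to 13.1) and 16.1% (13.5 to 19.1). Of the 34 WT cells with a Prf1 UMI, all 34 had Gzmb, and of 114 such cells in the other library 109 did. Free RNA also held more of most granzymes in that library, and its part in these shares was not tested.

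**Figure D3:**
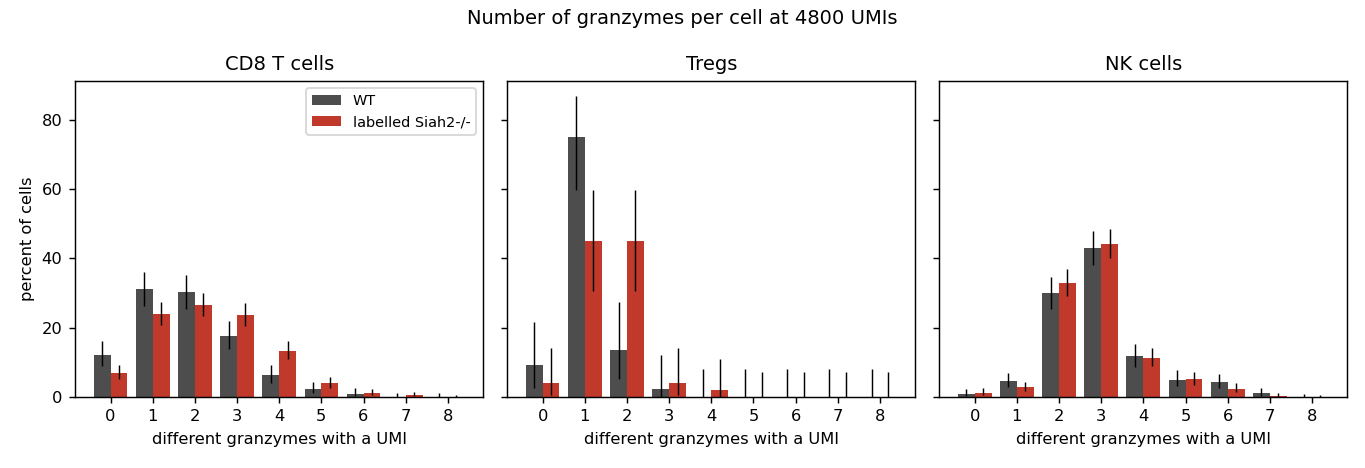
Percent of cells by the number of different granzymes with a UMI, of 8, after thinning to 4800 UMIs, for WT (grey) and the library labelled Siah2-/- (red), with exact binomial 95% intervals. CD8 T cells reach 3 or more in 26.8% and 42.5%, NK cells have a median of 3 in both libraries, and most WT Tregs have 1.

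Some granzymes were found in the same cells. Among CD8 T cells with a Gzmf UMI, 68.5% in WT and 72.5% in the other library also had Gzmc, against 24.9% and 24.5% of those without Gzmf. Gzmk went with Gzma, which was present in 38.6% and 65.4% of cells with Gzmk and in 16.1% and 32.4% of cells without. The library ratio of Gzma was also split by Gzmk. In cells with a Gzmk UMI, Gzma was at 1275 and 2962 CPM, a log2 ratio of 1.22 (1.13 to 1.31). In cells without one it was at 349 and 356, a log2 ratio of 0.03 (−0.08 to 0.14). In WT, 4 cells with and 3 cells without a Gzmk UMI held 50% of these Gzma UMIs, and 1 cell held 32.1% of those without. These cells were picked by detection of Gzmk, so Gzmk itself is no result there, and the difference between the subsets was not tested.

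CD8 T cells were also split by checkpoint receptor genes, which mark activated and exhausted T cells. With 2 or more of Pdcd1, Havcr2, Lag3 and Tigit detected (263 and 427 cells), 8 of 9 members were higher in the library labelled Siah2-/- and 0 lower, against 6.91% and 9.87% of all genes there. Gzmb was then at 3951 and 7138 CPM, a log2 ratio of 0.85 (0.82 to 0.88), and Prf1 at 35.2 and 71.8, a log2 ratio of 1.03 (0.71 to 1.36). In the 92 and 248 CD8 T cells with 0 or 1 of them detected, 7 members had 20 or more UMIs, of which 1 was higher and 3 were lower, against 7.47% and 11.2% of all genes. The higher one was Gzmd, on 3 and 23 UMIs, with 69.6% of the latter in 1 cell. There Gzma was at 1079 and 639 CPM, a log2 ratio of −0.76 (−0.88 to −0.63). These UMIs lay in few cells, 50% of them in 4 of the 92 and in 8 of the 248, and 1 WT cell held 18.1%. The share of cells with a Gzma UMI was on the other side, 25.0% (16.6 to 35.1) and 36.7% (30.7 to 43.0) after thinning and 28.3% and 42.7% before. Gzmb was at 1923 and 1594 CPM there, a log2 ratio of −0.27 (−0.36 to −0.19), and present in 68.5% and 73.4% of cells after thinning. Detection of checkpoint genes depends on depth, which was lower in the library labelled Siah2-/-, and the difference between the subsets was not tested.

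Cycling cells, those with a UMI of Mki67 or Top2a, were 202 of 355 CD8 T cells in WT and 184 of 675 in the other library. After thinning the shares were 49.0% (43.7 to 54.3) and 19.7% (16.8 to 22.9), against 13.4% and 6.11% of macrophages, which can themselves divide. Gzmb was at 3482 and 7205 CPM in them, a log2 ratio of 1.05 (1.01 to 1.09). In the cells without these UMIs it was at 3455 and 4452, a log2 ratio of 0.37 (0.32 to 0.41). Gzmc had a log2 ratio of 1.19 (1.08 to 1.29) in cycling cells and of −0.01 (−0.14 to 0.12) in the others. Gzmf was higher in both, by 1.49 and 1.99 on the log2 scale. The subsets were formed before thinning, and the difference between them was not tested. Kept cells began at 6670 UMIs in WT and at 4896 in the other library. At the WT limit 459 of the 675 CD8 T cells labelled Siah2-/- remained, and cycling shares at that limit were not counted.

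Tregs used Gzmb and little else. It made up 98.6% (97.9 to 99.1) of their granzyme UMIs in WT and 97.8% (97.1 to 98.4) in cells labelled Siah2-/-, against 68.0% and 62.8% in CD8 T cells. The Gzmb level was 3936 CPM in 44 WT Tregs and 6200.4 in 49 Tregs of the other library, a log2 ratio of 0.66 (0.57 to 0.75). It was the only member at least 1.5-fold above free RNA in Tregs, by 3.51-fold and 3.77-fold. All 3 members with 20 or more UMIs were called higher, where 7.44% of 4529 genes were higher and 8.77% lower, but Gzma and Gzmc rested on 12 and 21 UMIs and on 5 and 20. Perforin was at 5 and 3 UMIs in Tregs. The macrophage gene Lyz2 was at 1015 and 177 CPM in Tregs, with 421 of 471 WT UMIs in 1 cell, and without the top Lyz2 cell of each library the Gzmb log2 ratio was 0.66 (0.57 to 0.75). With the lowest UMI count of WT cells required in both libraries, 20 Tregs labelled Siah2-/- remained, 0 members were called, and Gzmb had a log2 ratio of 0.49.

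In other CD4 T cells Gzmb was lower than in Tregs, at 947 and 969 CPM, a log2 ratio of 0.03 (−0.22 to 0.30). The WT library held 14 such cells. In them 0 of 6 members with 20 or more UMIs were higher and 2 lower, Gzmc and Gzmf, against 6.70% and 9.96% of all genes. T cells that met none of these 3 definitions had 5 members higher and 0 lower, against 7.42% and 13.1%. Over all T cells 5 members were called higher and 0 lower, against 8.60% and 12.6% of 10888 genes, but the make-up of the T cells differed, with 355 of 471 and 675 of 1149 being CD8 T cells. Gzmb over all T cells was at 3322 and 4557 CPM, a log2 ratio of 0.46 (0.43 to 0.48).

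NK cells showed another pattern. Their total granzyme content was 1.82 (1.81 to 1.84) and 1.91 (1.90 to 1.92) of every 100 UMIs, and 1.78 and 1.73 without the cell of each library with most granzyme UMIs. Its make-up differed more. Gzmc led in WT with 48.0% (47.6 to 48.3) of granzyme UMIs and stood at 24.0% (23.7 to 24.3) in the library labelled Siah2-/-. Gzma was at 24.2% (23.9 to 24.5) in WT and at 43.1% (42.8 to 43.4) in the other library, where it led. Gzmb stood at 17.9% and 18.9%. The plot of make-up shows this exchange.

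**Figure D4:**
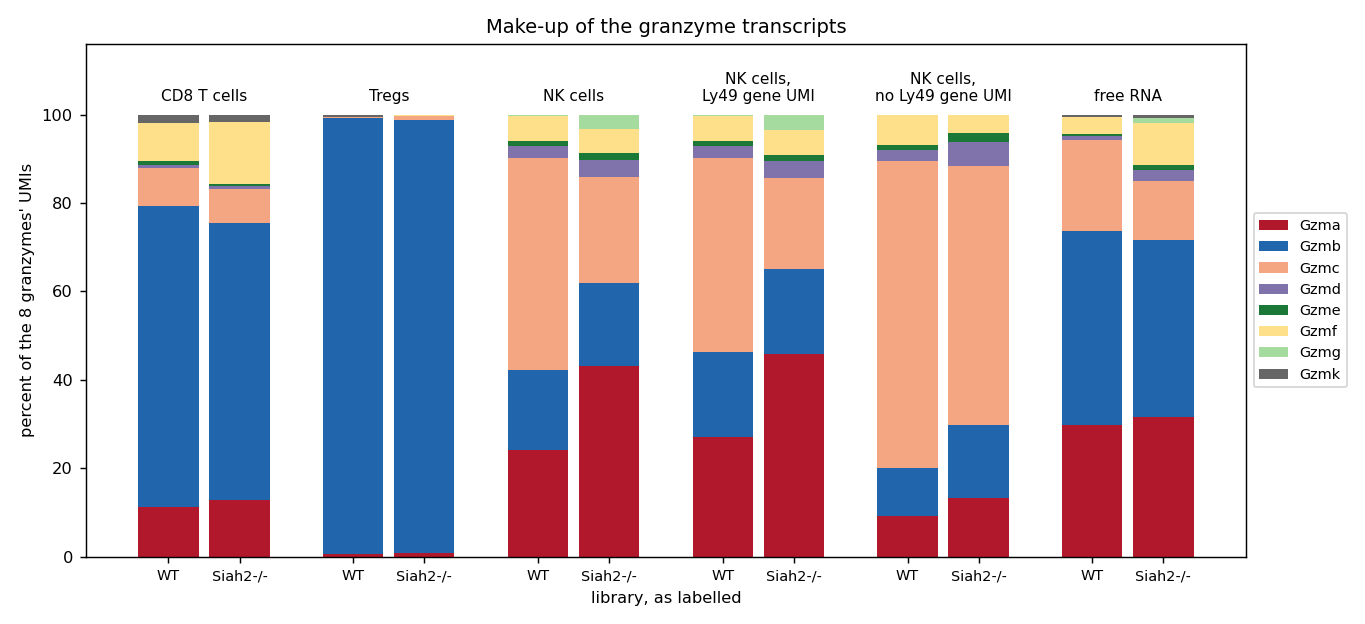
Share of each granzyme in the UMIs of all 8 granzymes, in percent, per gate and library. Gzmb fills nearly the whole bar in Tregs, and in NK cells the share of Gzmc is 48.0% in WT and 24.0% in cells labelled Siah2-/-.

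On the level scale, Gzma in NK cells was at 4422 CPM in WT (4360 to 4485) and 8236 in cells labelled Siah2-/- (8158 to 8314), a log2 ratio of 0.90 (0.87 to 0.92). With all barcodes of 1000 or more UMIs it was 0.56, under the 1.5-fold limit. Gzmc was at 8749 (8662 to 8838) and 4589 (4531 to 4648), a log2 ratio of −0.93 (−0.95 to −0.91). Gzmb was at 3273 and 3607, a log2 ratio of 0.14 (0.11 to 0.17), and Prf1 at 138 and 165, a log2 ratio of 0.26 (0.10 to 0.41). Both stayed under the 1.5-fold limit. By the call rule 4 members were higher and 1 lower in NK cells, against 8.06% and 6.67% of 10048 genes. In cells, Gzma was present in 81.8% (77.7 to 85.5) and 91.4% (88.9 to 93.6) after thinning, or 87.0% and 94.5% before it. Gzmc was present in 76.6% (72.1 to 80.6) and 61.2% (57.1 to 65.1), or 82.0% and 67.1% before. Macrophages, which should lack it, had a Gzmc UMI in 3.88% and 13.2% after thinning, and the median depth of NK cells was 9337 and 7778 UMIs. Prf1 was present in 45.1% and 44.4% of NK cells.

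For other members in NK cells the ratio rested on few cells. In the library labelled Siah2-/-, 1 NK cell of 31942 UMIs held 97.6% of the Gzmg UMIs, 52.1% of Gzmf, 46.1% of Gzme and 39.6% of Gzmd. Granzyme F alone made up 8.82% of its UMIs and granzyme G 9.64%. With the top cell of each library left out, the log2 ratio of Gzmg went from 3.42 to −0.89, that of Gzmd from 0.60 to 0.10 and that of Gzmf from 0.00 to −0.83. For Gzmk, also called higher, the UMIs were 24 and 70.

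NK cells were also split by Ly49 receptors, which mark mature NK cells. In the 358 and 530 NK cells with a Ly49 UMI, Gzma was at 4665 and 9119 CPM, a log2 ratio of 0.97 (0.94 to 0.99). In the 43 and 65 cells without one it was at 2427 and 1839, a log2 ratio of −0.40 (−0.52 to −0.28), short of the 1.5-fold limit. There 4 WT cells and 3 cells of the other library held 50% of the Gzma UMIs, with 18.4% and 21.1% in the top cell. The share of these cells with a Gzma UMI was on the other side, 37.2% (23.0 to 53.3) and 56.9% (44.0 to 69.2) after thinning, and the median was 0 and 1.499 UMIs per 10000. Gzmc had log2 ratios of −0.89 (−0.92 to −0.86) with and −1.16 (−1.21 to −1.11) without Ly49, and made up 69.4% and 58.6% of granzyme UMIs in the latter. One Ly49 gene, Klra8, was also among the 5 NK markers, and the difference between the subsets was not tested. Gzmc had a log2 ratio of −0.89 (−0.94 to −0.85) in cycling NK cells and of −0.95 (−0.97 to −0.92) in the others, a difference between subsets that was not tested either.

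Gzmd and Gzme were found chiefly in NK cells that also had Gzmc. Gzmd was present in 20.5% and 17.6% of NK cells with a Gzmc UMI and in 1.06% and 0.433% of those without. For Gzme the shares were 15.3% and 15.7% against 0 and 1.30%. Gzmb was present in 93.8% and 97.8% with and in 90.4% and 93.1% without.

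Cells with both T and NK markers, 206 and 530, were kept out of both gates. In them 9 of 9 members were higher and 0 lower, against 5.71% and 7.57% of all genes, with Gzmb at 2618 and 4940 CPM, a log2 ratio of 0.92 (0.88 to 0.96). Gzmc, lower in NK cells, was at 2048 and 3248 there, a log2 ratio of 0.67 (0.62 to 0.71). Gzmd was at 77.2 and 629, a log2 ratio of 3.03 (2.81 to 3.25). In the library labelled Siah2-/-, 1 barcode held 724 of the 3259 Gzmd UMIs and 500 of the 1262 Gzmg UMIs, and WT had 2 Gzmg UMIs. The share of these cells with a UMI was higher beyond both intervals for 1 of the 9 members, Gzma, at 45.1% (38.2 to 52.2) and 57.0% (52.6 to 61.2) after thinning. How many of all genes did so was not counted. For Gzmd the shares were 7.77% and 9.62%, with overlapping intervals. Whether these barcodes are doublets, T cells with NK receptors or NK cells with CD3 transcripts was not tested.

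Macrophages carried few UMIs of any member, yet 8 of 9 were called higher and 0 lower in the library labelled Siah2-/-, where 7.83% of 11992 genes were higher and 11.5% lower. Gzmb was at 20.9 and 63.6 CPM, a log2 ratio of 1.61 (1.45 to 1.76), and Gzma at 14.1 and 61.8, a log2 ratio of 2.13 (1.95 to 2.31). Those levels were 1.86% and 3.86% of the free RNA level for Gzmb, and 1.86% and 4.74% for Gzma. Over the 9 members the median was 2.32% and 4.81%. In the same macrophages 8 other lymphocyte genes, among them Lck, Thy1 and Cd8a, had a median of 2.48% (range 2.34% to 3.19%) and 4.83% (range 3.93% to 7.43%). After free RNA was subtracted by these 8 genes, 0 members were higher in macrophages. Gzmc, the exception with a log2 ratio of 0.09 (−0.08 to 0.26), had 384 of its 601 WT UMIs in 1 barcode, and its log2 ratio was 1.55 without the top barcode of each library.

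DC and CD45-negative cells were alike in this. In DC, 3 members had 20 or more UMIs and all 3 were higher, where 10.3% of genes were higher and 8.13% lower. In CD45-negative cells all 4 such members were higher, where 6.31% of genes were higher and 5.65% lower. No member reached 1.5-fold above free RNA in macrophages (11.7% and 10.3% of all genes did), in DC (13.8% and 14.8%) or in CD45-negative cells (26.8% and 25.7%). Gzmb in CD45-negative cells was at 16.6 and 57.7 CPM, or 1.48% and 3.50% of the free RNA level. The 8 lymphocyte genes stood at a median of 2.14% and 4.43% there.

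**Figure D5:**
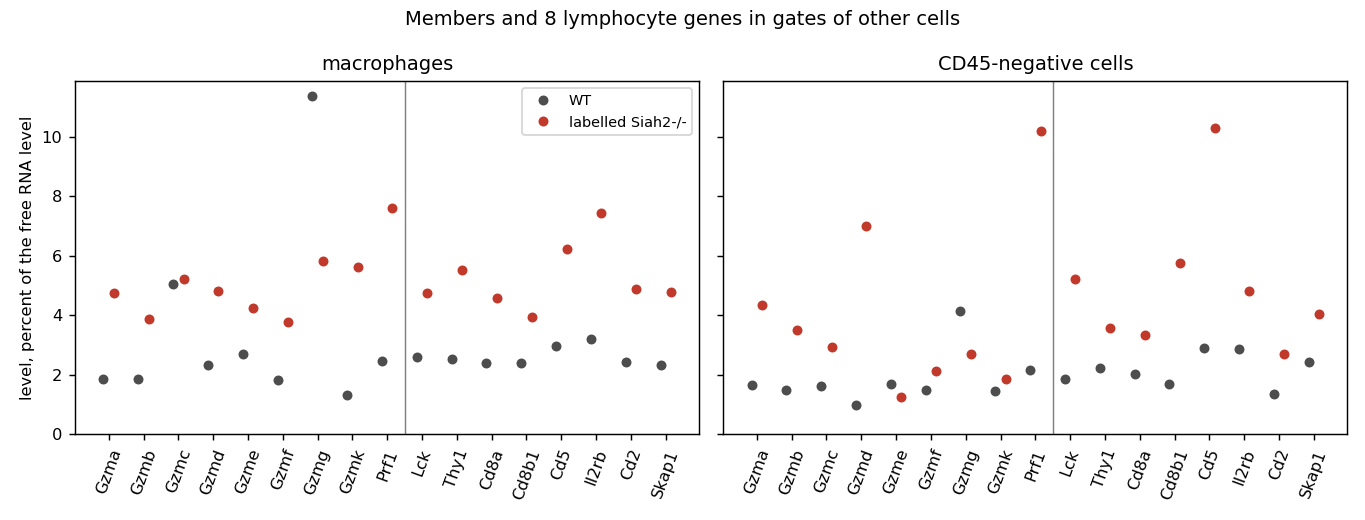
Level in macrophages and CD45-negative cells, as percent of the level in free RNA, of the 9 members (left of the line) and of 8 lymphocyte genes (right of it), for WT (grey) and the library labelled Siah2-/- (red). In macrophages the members' median is 2.32% and 4.81% and that of the 8 genes 2.48% and 4.83%, and the WT point of Gzmg at 11.4% rests on 4 UMIs.

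A list of 33 other genes of the granule pathway was counted whole. In CD8 T cells 6 were higher and 1 lower of 32 with 20 or more UMIs, where 7.98% and 10.6% of all genes were. In NK cells 5 were higher and 1 lower of 32, where 8.06% and 6.67% of all genes were. In Tregs 7 were higher and 0 lower of 21, where 7.44% and 8.77% of all genes were, all 7 named here after their values were seen. Nkg7 (360 and 440 UMIs) and the IL-2 receptor chain Il2rb (134 and 167) had log2 ratios of 0.65 (0.45 to 0.86) and 0.68 (0.34 to 1.02). The other 5 rested on fewer UMIs, Rab27a on 14 and 27 (log2 ratio 1.31), Vamp7 on 8 and 19 (1.61), Il12rb2 on 12 and 23 (1.30) and Il18r1 on 16 and 25 (1.01). Ifng had the largest ratio of them, 5.17 (2.57 to 10.52), on 1 and 28 UMIs. In Tregs Ifng was at 2.16 and 77.6 CPM against 88.9 and 191 in free RNA, and Nkg7 at 776 and 1220 against 1057 and 1341. Vamp7 was below free RNA in WT only, and Il2rb, Rab27a, Il12rb2 and Il18r1 were above it in both libraries. No gene of granule packing (Srgn, Ctsc, Lamp1, Nkg7) or release (Rab27a, Unc13d, Stx11, Stxbp2, Lyst, Vamp7) was called in CD8 T cells or NK cells. Nkg7, a granule membrane protein, was at 3294 and 3554 CPM in CD8 T cells, a log2 ratio of 0.11 (0.08 to 0.14). Among the inhibitors, Serpinb9, which shields the killer from its own granzyme B, was at 106 and 215 CPM in CD8 T cells, a log2 ratio of 1.01 (0.86 to 1.18). Serpinb6b, an inhibitor of granzyme A, had a log2 ratio of 0.69 (0.54 to 0.84) there. Neither was called in NK cells, with log2 ratios of 0.37 and 0.24. As for the other genes of this list that were not called, these were named after their values were seen.

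Of regulators and receptors, Tcf7, a factor of memory-like T cells, had a log2 ratio of 1.05 (0.67 to 1.45) in CD8 T cells. The IL-12 receptor chain Il12rb2 had 0.91 (0.62 to 1.22) in CD8 T cells and 1.21 (0.81 to 1.62) in NK cells. Il18r1, a receptor for IL-18, had 1.03 (0.70 to 1.38) in NK cells, and Stat4, which signals from the IL-12 receptor, 0.81 (0.56 to 1.07). Ifng stood at 77.1 and 150 CPM in NK cells, a log2 ratio of 0.96 (0.77 to 1.14), and at 503 and 512 in CD8 T cells, 0.02 (−0.06 to 0.10). In free RNA Ifng was at 88.9 and 191 CPM, above its level in NK cells in both libraries. Fasl, the ligand of the other killing pathway, had 0.60 (0.40 to 0.81) in CD8 T cells. The granzyme gene Gzmm went the other way there, at 15.9 and 9.75 CPM, a log2 ratio of −0.71 (−1.24 to −0.18). Tbx21, Eomes and Runx3 were not called in CD8 T cells or NK cells.

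Over 8 gates in both libraries, 16 points that share libraries and depth, the gene most like Gzma of 9776 was Prf1, with a Pearson r of 0.966 on log2(CPM + 10). Klre1, an NK receptor and one of the gate markers, followed at 0.951, then Dapk2 at 0.946. For Gzmb the nearest were Gimap6 (0.985), Gimap7 (0.982) and Ablim1 (0.979), which are expressed in T and NK cells. For Prf1 they were Gzma, Dapk2 (0.943) and Tuba8 (0.937).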

How the data were processed

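Live CD45-positive tumor cells with some CD45-negative cells were profiled by droplet sequencing (10x 3′ v2), 1 library per genotype. The submitters' processing notes name bcl2fastq and Cell Ranger with build mm10 (GRCm38), and their versions are not given in the sources used here. The authors deposited count matrices (UMI counts of all barcodes), a table of UMI counts of the cells they kept, and a table of normalized values on a natural log scale. Of the last, only the list of cells was used here, not the values.

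The 4512 and 5563 cells of the deposited normalized table were analysed, of 4524 and 5576 in the table of counts, with counts from the matrices. The 9 members and the gene lists were chosen with earlier results of these data known. All 9 members were named, and of the pathway list those called with 100 or more UMIs, up to 5 each way in CD8 T and NK cells. Other genes of that list, such as those called in Tregs, were named after their values were seen. A marker was detected with 1 UMI. CD8 T cells had Cd8a or Cd8b1 and neither Cd4 nor Foxp3, and Tregs had Foxp3 and neither Cd8a nor Cd8b1. Cells with markers of several gates were left out, and no doublet caller was run. Levels are CPM over the UMIs of the gate, with exact Poisson intervals. Ratios have exact conditional binomial intervals and shares exact binomial ones, all at 95%. Each call needed 20 UMIs over both libraries. Cells were thinned at random to 4800 UMIs for shares, which left out no cell. Free RNA is the sum of barcodes with 100 or fewer UMIs. With 1 library per genotype no test was made. The intervals cover counting error only. The functions were tested on simulated data. Alternatives changed the cells kept, markers, doublet treatment, scaling, free RNA subtraction, the UMI minimum, thinning and single high cells. Promoters are from RefSeq (GRCm38.p6), where all 9 members matched, and positions from GENCODE M21. Python 3.11.15, numpy 2.4.6, scipy 1.17.1, pandas 2.3.3 and Biopython 1.88 were used.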

Additional observations from a re-analysis of the deposited data

Results flagged for a closer look

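Gzmc had counting intervals on opposite sides of 0 in CD8 T cells and NK cells. Its log2 ratio, library labelled Siah2-/- over WT, was 0.58 in CD8 T cells, under the 1.5-fold limit, and -0.93 in NK cells, from 1 library per genotype. Within CD8 T cells it was -0.01 in cells with no cycle gene UMI and -0.62 in those with 0 or 1 checkpoint genes detected, where 1 cell of each library held 25.0% and 33.1% of its UMIs. The difference between these values was not tested.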

How the results depend on the processing

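No paired analysis was possible because each genotype had 1 library. For the same reason no replicate could be left out. The number of members called higher in T cells was 5, against 8 with the lowest UMI count of WT cells applied to both libraries, 8 with 1 marker more per gate, 8 with cells of both T and NK markers counted as T cells, and 3 with levels averaged over cells. In CD8 T cells it was 7, against 4 without the 5% of cells with most UMIs and 4 with levels averaged over cells, and 4 to 9 over all its alternatives. In NK cells it was 4, against 2 with no marker of another gate, 2 without the 5% of cells with most UMIs and 2 without the top cell of each gene, and 2 to 6 over all its alternatives. In Tregs it was 3, against 0 with the lowest UMI count of WT cells, 1 with no marker of another gate and 1 after free RNA was subtracted. In macrophages it was 8 and, after that subtraction, 0, with 9 the highest over its alternatives. The share of all genes called higher was not counted under any of these alternatives. The Gzmc share of granzyme UMIs in WT NK cells, 48.0%, was 33.2% with barcodes of 1000 or more UMIs, 47.3% with 1 marker more, 45.7% with no marker of another gate, 48.6% without the top cell and 43.8% with cells of both T and NK markers counted as NK cells. In the library labelled Siah2-/-, 24.0%, it was 27.4% with the lowest UMI count of WT cells, 17.4% with barcodes of 1000 or more UMIs, 25.8% with 1 marker more, 25.5% without the 5% of cells with most UMIs, 25.6% without the top cell and 23.1% with cells of both markers. The granzyme content of NK cells, 1.82 and 1.91 per 100 UMIs, was 1.78 and 1.73 without the cell of each library with most granzyme UMIs. This last setting, leaving out the top Lyz2 cell of Tregs, counting cells of both T and NK markers, and all alternatives for the Gzmc shares were chosen after seeing the data.

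Log2 ratios turned in NK cells. Gzmd was at -0.53 with no marker of another gate, -0.14 without the 5% of cells with most UMIs and -0.10 averaged over cells. Gzme was at -0.94 with no marker of another gate. Gzmf was at -1.82, -1.06 and -0.98 under these 3 settings and -0.83 without the top cell, and Gzmg at -3.68 with no marker of another gate, -1.97 without the 5% and -0.89 without the top cell. The ratio of Gzme in CD8 T cells, 0.04, was 4.54 with no marker of another gate, and in T cells, 0.43, it was 5.40. Gzmc turned to -0.93 in Tregs with 1 marker more and to -2.74 in macrophages after free RNA was subtracted. The ratio of Gzma in NK cells was 0.56 with barcodes of 1000 or more UMIs, and that of Gzmb in CD8 T cells was 0.53, 0.54 and 0.45 with no marker of another gate, without the 5% and averaged over cells, all under the 1.5-fold limit. The cause was not tested. Of 482 alternatives of single-gene ratios, 414 kept direction and side of the limit.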
